A study of Mus musculus with 28 samples.

Results

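Glycolysis splits glucose into pyruvate in the cytosol, and 10 genes of its enzymes are described here: Gpi1, Aldoa, Aldoc, Tpi1, Gapdh, Pgk1, Eno1, Pkm, Ldha and Ldhb. They were taken by symbol from the 17690 gene rows of 28 single-cell libraries of adult mouse brain, and 9 of the 10 had a row in every library, while Eno1 had one in 17 of 28. Aldolase and lactate dehydrogenase are each present as a pair of isoform genes, which were compared within each library: Aldoc with Aldoa, and Ldhb with Ldha. In the forebrain, astrocytes and the stem cells related to them are known to carry aldolase C, while aldolase A is the widespread muscle-type form. The B subunit of lactate dehydrogenase is known for heart-type enzyme and the A subunit for muscle-type enzyme.

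The cells came from the subependymal zone (SEZ), the neurogenic region along the lateral ventricle, and were sorted by fluorescence into wells and profiled by SORT-seq, which tags the 3′ end of each captured transcript with a random barcode. The design compares stem cells, dividing cells and their later progeny. There were 7 sorts of 4 libraries. Prom1CD24 cells were sorted with antibodies to Prom1, a marker of ventricle contact, and to CD24, which is high in neuroblasts. Day60mix cells joined tdTomato cells of the SEZ and of the olfactory bulb with cells bound by an antibody to the oligodendrocyte antigen O4, from mice of 8 to 19 weeks. Its tdTomato cells came from Ki67-iresCreER Rosa-tdTomato mice, 60 days after a single dose of 5 mg tamoxifen. Day60 and Day2 cells were tdTomato cells of Ki67-iresCreER +/ki Rosa-tdTomato +/ki mice, taken 60 days (age 16 to 19 weeks) and 2 days (age 8 to 10 weeks) after a single dose of 5 mg tamoxifen, so that label began in cells that expressed Ki67 at the time. Ki67RFP cells came from Ki67-tagRFP ki/ki mice, in which a red protein is fused to this protein of dividing cells. The GLASTEGF sort used antibody against GLAST, a glutamate transporter of stem cells and astrocytes, and the binding of labelled EGF, alone or combined. TroyGFP cells came from Troy-GFPiresCreER +/ki mice, whose reporter sits in a gene used as a stem cell marker. The last 3 sorts, Prom1CD24 and Day2 were from mice of 8 to 10 weeks, and all mice were on the Bl/6 background. The number of mice behind a library is not given in the sources used here, so p-values may measure technical spread only, and age and time after tamoxifen cannot be told apart.

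Of 2688 wells, 1789 held at least 1000 transcripts and were used as cells, with 11 to 89 per library; the study's own text speaks of about 1500 good cells out of about 2500. Library totals over all wells were 77795 to 575257 transcripts, and no cell was identical to a cell of another library. The Prom1CD24 libraries were shallow, with 64 cells in all and 44.3 to 56.8% of their signal in spike-in RNA, against 6.57 to 17.7% elsewhere, and entered no comparison. TroyGFP library 2 and GLASTEGF libraries 3 and 4 held transcripts of gut genes, at 977.5, 143.3 and 634.6 transcripts per 1000000 (CPM), against at most 20.6 CPM in any other library. Transcripts of 4 Y-linked genes summed to 285.2 to 430.6 CPM in the TroyGFP and GLASTEGF libraries and to 0 in the other 5 sorts, in which Xist stood at 111.2 to 825.6 CPM. The Day2 libraries held 17.1 to 38.1 transcripts of Rn45s and Lars2 each, against 1206 to 40721 elsewhere. The part of these differences in any result was not tested. Marker lists of cell classes are given with the comparisons.

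Each captured molecule gives 1 tag, whatever the length of its transcript, so levels of different genes are set side by side as CPM without division by length. Levels across sorts are on 1 common scale (TMM, which scales libraries by the bulk of their genes), and the log2 fold of each comparison is from its own limma fit of 4 libraries against 4. A call means p below 0.05 after Benjamini-Hochberg adjustment over all genes tested. A gene was tested if it passed a filter on low genes in 4 libraries, which could all be of the same sort. Genes near 0 in the other sort were thus tested through their higher sort alone, and could hardly be called in the opposite direction. In such sums over cells, fewer cells of a type and less RNA per cell cannot be told apart.

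The promoters of the 2 isoform pairs are shown because the isoform comparisons below rest on these genes. Windows of 300 bases, 250 before to 50 after a start site, were taken from RefSeq (GRCm38.p6), and for each gene the window with the most matches to ACGTG or GCGTG is printed, the first listed where windows tied. These are the core letters recognised by the hypoxia-inducible factors, which are textbook regulators of glycolytic genes. Both strands were searched, and matches are in capitals: CACGT and CACGC are the same letters read on the other strand. Ldha is at chr7:46845554-46845853 (plus strand), Ldhb at chr6:142507908-142508207 (minus), Aldoc at chr11:78322823-78323122 (plus) and Aldoa at chr7:126799205-126799504 (minus).
Ldha: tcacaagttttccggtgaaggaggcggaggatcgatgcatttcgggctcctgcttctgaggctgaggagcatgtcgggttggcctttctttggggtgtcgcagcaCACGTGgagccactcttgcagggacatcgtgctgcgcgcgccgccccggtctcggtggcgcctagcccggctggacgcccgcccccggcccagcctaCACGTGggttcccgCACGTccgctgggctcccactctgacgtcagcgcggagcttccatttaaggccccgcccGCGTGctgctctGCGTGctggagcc
Ldhb: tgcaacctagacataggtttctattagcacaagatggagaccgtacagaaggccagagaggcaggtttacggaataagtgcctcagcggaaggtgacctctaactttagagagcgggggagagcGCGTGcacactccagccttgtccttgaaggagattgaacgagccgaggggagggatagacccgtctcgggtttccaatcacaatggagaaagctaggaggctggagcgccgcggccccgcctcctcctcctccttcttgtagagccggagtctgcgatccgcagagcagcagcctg
Aldoc: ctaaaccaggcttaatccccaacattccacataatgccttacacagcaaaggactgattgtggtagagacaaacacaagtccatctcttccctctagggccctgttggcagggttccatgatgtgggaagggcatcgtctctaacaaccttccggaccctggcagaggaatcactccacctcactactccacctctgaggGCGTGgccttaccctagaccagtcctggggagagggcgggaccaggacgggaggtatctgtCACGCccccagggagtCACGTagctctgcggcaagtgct
Aldoa: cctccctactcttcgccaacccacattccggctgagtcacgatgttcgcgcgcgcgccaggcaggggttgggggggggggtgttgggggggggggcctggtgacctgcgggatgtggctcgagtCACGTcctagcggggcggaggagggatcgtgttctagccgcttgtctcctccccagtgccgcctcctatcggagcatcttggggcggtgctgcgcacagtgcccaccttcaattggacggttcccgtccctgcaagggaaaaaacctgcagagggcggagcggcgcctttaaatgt
The Ldha window held 5 matches to ACGTG and 2 to GCGTG, among them a pair of CACGTG words, each of which was counted once on either strand. Aldoc had 1 and 2 matches, Ldhb had 0 and 1, and Aldoa had 1 and 0. Over all windows of this length, ACGTG was in 19.6% and GCGTG in 32.4% of 32851, and CACGTG in 7.15%. Either core was in a window of 8 of the 10 genes, Gpi1 and Tpi1 being without it, against 46.7% of 27025 genes. The 10 genes had 17 windows and the 27025 genes had 32851, so the members had more windows per gene in which to match. These matches describe letters and no binding was measured.

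Aldoc, the aldolase C gene (mm10 chr11:78322968-78327781, plus strand), covered the widest range of the 10. It had 564.4, 694.9, 986.0 and 602.1 CPM in Prom1CD24 libraries and 306.5, 582.2, 260.8 and 430.2 CPM in Day60mix libraries. Day60 libraries held 3205, 3484, 3933 and 3103 CPM of Aldoc, against 93.9, 7.40, 293.1 and 101.9 CPM in Day2 libraries. Every Day60 library was above every other library of the series. Aldoc stood at 6.09, 56.6, 9.31 and 52.8 CPM in Ki67RFP libraries and at 1297, 1118, 992.9 and 1094 CPM in GLASTEGF libraries, against 2781, 2776, 2804 and 2748 CPM in TroyGFP libraries. In descending order the sorts ran Day60, TroyGFP, GLASTEGF and Prom1CD24 with no overlap between neighbours, followed by Day60mix, Day2 and Ki67RFP. Prom1CD24 overlapped Day60mix, Day60mix overlapped Day2, and Day2 overlapped Ki67RFP.

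The few Aldoc transcripts of the low sorts had different holders. In Day2 libraries 1, 3 and 4, 21.9 of 22.9, 101.5 of 103.5 and 25.9 of 27.95 transcripts lay in 1, 3 and 2 cells of a stem-like cluster class. The markers of that class are shared with astrocytes. Without those cells the Day2 libraries had 4.00 to 7.38 CPM. In Ki67RFP libraries 2 and 4, 28.2 and 29.1 transcripts were spread over 14 and 21 cells, none of them in that cluster class and none holding more than 8.13. Ki67RFP libraries 1 and 3 had 3.01 and 5.03 transcripts.

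Aldoa, the aldolase A gene (chr7:126795234-126800751, minus strand), had its own order. Its level was 526.7, 285.4, 809.3 and 251.9 CPM in Prom1CD24 libraries and 1037, 955.9, 1005 and 828.3 CPM in Day60mix libraries. Day60 libraries had 722.2, 528.7, 582.7 and 489.8 CPM of Aldoa, against 69.98, 59.8, 74.1 and 54.9 CPM in Day2 libraries. It was at 58.9, 54.3, 65.1 and 71.01 CPM in Ki67RFP libraries and at 162.8, 276.3, 144.6 and 208.4 CPM in GLASTEGF libraries, against 405.1, 399.7, 406.4 and 473.3 CPM in TroyGFP libraries. Day60mix was thus highest for Aldoa, above all Day60 libraries, while Day2 and Ki67RFP overlapped each other and lay below all GLASTEGF libraries.

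Ldhb, the B subunit gene of lactate dehydrogenase (chr6:142490249-142507957, minus strand), was highest in Day60 and next in TroyGFP, as Aldoc was. It had 1221, 1080, 1163 and 991.9 CPM in Day60 libraries, against 273.0, 211.7, 345.6 and 363.7 CPM in Day2 libraries. Ki67RFP libraries had 349.3, 292.6, 332.2 and 377.4 CPM and GLASTEGF libraries 596.5, 433.3, 559.9 and 532.1 CPM, against 768.6, 804.7, 837.9 and 899.3 CPM in TroyGFP libraries. Day60mix libraries lay between 469.8 and 596.9 CPM and Prom1CD24 libraries between 161.1 and 725.0 CPM. Day60 exceeded TroyGFP and TroyGFP exceeded GLASTEGF in every library, and the sorts below that overlapped their neighbours.

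Ldha, the A subunit gene (chr7:46841475-46855627, plus strand), was lower and flatter, and no neighbours in its order were apart. Its level was 194.1, 164.2, 167.7 and 190.2 CPM in Day60 libraries, against 78.3, 138.8, 142.8 and 62.2 CPM in Day2 libraries. Ki67RFP libraries had 97.7, 62.4, 81.8 and 96.7 CPM of Ldha and GLASTEGF libraries 163.0, 141.8, 140.4 and 144.3 CPM, against 117.4, 169.2, 132.3 and 153.0 CPM in TroyGFP libraries. Day60mix libraries had 134.7 to 171.5 CPM and Prom1CD24 libraries 40.1 to 232.8 CPM.

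Of the genes for the other steps, Tpi1, triose phosphate isomerase (chr6:124810586-124814296, minus strand), was lowest in Day2. It had 282.2, 234.0, 247.0 and 206.0 CPM in Day60 libraries, against 28.8, 44.6, 37.01 and 18.3 CPM in Day2 libraries. It was at 114.0, 124.8, 87.3 and 103.9 CPM in Ki67RFP libraries and at 114.7, 77.6, 112.1 and 107.2 CPM in GLASTEGF libraries, against 199.9, 167.2, 160.6 and 135.9 CPM in TroyGFP libraries. Day2 was below every other sort in Tpi1, with no overlap, and Day60mix at 207.9 to 328.2 CPM overlapped Day60.

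Gpi1, glucose-6-phosphate isomerase (chr7:34201330-34230336, minus strand), had 328.8 to 378.4 CPM in Day60, 54.9 to 104.1 in Day2, 79.3 to 125.0 in Ki67RFP, 152.8 to 165.4 in GLASTEGF and 209.0 to 254.95 in TroyGFP libraries. Gapdh, glyceraldehyde-3-phosphate dehydrogenase (chr6:125161715-125166467, minus strand), ran from 1336 CPM in a Day2 library to 2378 CPM in a Day60 library. Its 4 Day2 libraries stayed within 1336 and 1439 CPM, and every pair of neighbouring sorts overlapped. Pgk1, phosphoglycerate kinase (chrX:106187100-106203699, plus strand), had sort means of 218.4 (Ki67RFP) to 337.1 CPM (Day60), all neighbours overlapping. Pkm, pyruvate kinase (chr9:59656368-59679375, plus strand), had 370.4 to 457.9 CPM in Day2 libraries, below every other library, and sort means of 617.5 to 765.9 CPM elsewhere. Tags at the 3′ end cannot tell the M1 and M2 transcripts of Pkm apart.

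Eno1, enolase 1 (chr4:150236721-150248879, plus strand), was nearly absent from the tables. It had 13.03, 13.5, 6.97 and 8.80 CPM in Day60 libraries, at most 11.1 CPM in any other, and 0 in the 4 Day2 libraries, and it did not pass the filter of any comparison. A nearly identical copy, Eno1b, matches it at 99.4% of aligned coding bases and 99.3% of the last 300 aligned bases, so reads of the pair may have been split or set aside in counting, and no level of enolase 1 is drawn from these rows. The coding bases of Aldoc and Aldoa match at 79.1%, and those of Ldhb and Ldha at 76.8%. Over the last 300 bases, where the tags lie, these pairs match at 68.65% and 69.5% of aligned bases. Aldoart1, a processed copy of Aldoa, matches it at 93.9% of coding bases but 66.67% of the last 300. It had 60.2 transcripts in the Day60mix libraries together, against 1466 of Aldoa.

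**Figure D1:**
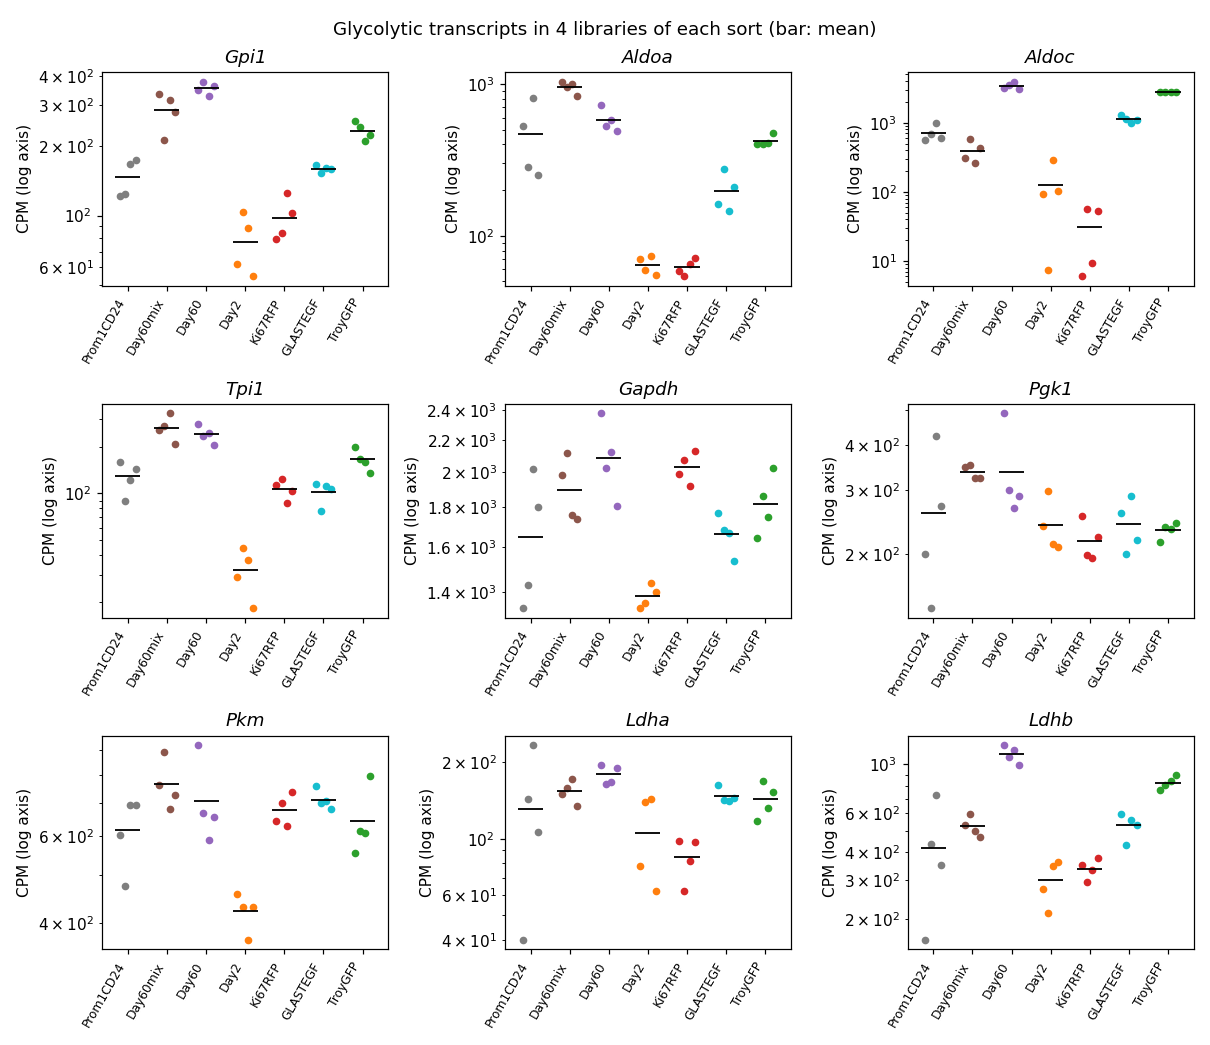
Levels of 9 glycolytic genes by sort (x axis) in CPM on a log axis, with a point for each of 4 libraries and a bar at their mean. Aldoc ran from 6.09 CPM in a Ki67RFP library to 3933 CPM in a Day60 library, while Gapdh stayed between 1336 and 2378 CPM in all 28 libraries.

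Ki67RFP, the sort by the Ki67 reporter, was compared with TroyGFP, the sort by a reporter in a stem cell marker gene. By the classes described below, 65.8 ± 15.1% of TroyGFP cells were stem-like (NSC-like; SD over libraries). Another 13.1 ± 3.4% were progenitor-like and 8.7 ± 2.2% endothelial-like. The markers of the NSC-like class, called stem cell markers in the comparisons, are shared by neural stem cells and astrocytes. Of 9 members tested, 6 fell and none rose, where 31.2% of 8396 genes fell and 28.4% rose. The fall was largest for Aldoc (log2 fold -7.06 ± 0.35 SE, adjusted p = 3.14e-15 by limma) and Aldoa (-2.81 ± 0.16, adjusted p = 3.79e-14). Ldhb (-1.37 ± 0.11), Gpi1 (-1.34 ± 0.16), Ldha (-0.84 ± 0.18) and Tpi1 (-0.72 ± 0.16) also fell. Gapdh (0.08 ± 0.08), Pkm (0.01 ± 0.11) and Pgk1 (-0.18 ± 0.13) did not pass the test. Gapdh passed it with no filter on low genes (0.20, adjusted p = 0.0219), and with cells thinned to 1000 transcripts it stood at -0.24 without a call, while Pgk1 was then called lower (-0.63, adjusted p = 0.0431). The members' median was -0.84, against -0.02 over all genes. Aldoc was below the filter in Ki67RFP libraries 1 and 3 (3.01 and 5.03 transcripts), so it passed only with TroyGFP libraries. Without Ki67RFP library 4, 2, 3 or 1, the log2 fold of Aldoc was -7.49, -7.46, -6.63 or -6.52. All 12 stem cell markers fell as well, 10 of 13 tested progenitor markers rose and 1 fell, and the 14 neuroblast markers and all 7 tested microglia markers rose; markers of endothelial cells summed to 0 to 12.7 CPM in Ki67RFP libraries, against 636.4 to 1190 CPM in TroyGFP libraries. Their part in the result was not tested.

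Of 36 other tested genes of glucose use, 23 fell and 1 rose. All 7 tested glycogen genes fell, among them Pygm and Pygl, phosphorylases that release glucose from glycogen (-4.43 ± 0.58 and -4.19 ± 0.58). Genes near 0 in Ki67RFP passed the filter through TroyGFP alone, so the shared direction of such genes was set by the filter. Between Day2 and Ki67RFP only 2 of the 8 glycogen genes listed passed it. The glucose transporter gene Slc2a1 fell most (-4.87 ± 0.51), and the other 2 tested transport genes fell too. The 3 tested genes of the enzymes that set fructose 2,6-bisphosphate, an activator of glycolysis, fell, as did 5 of 9 genes of pyruvate entry into mitochondria. The single rise was in Pdp1 (1.47 ± 0.28), whose enzyme activates pyruvate dehydrogenase. Only 1 of 4 pentose phosphate genes and 1 of 4 genes of the cytosolic NADH shuttles fell.

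The progeny of dividing cells was compared by time, Day60 against Day2. All 9 tested members rose, where 34.8% of 7648 genes rose and 32.8% fell. Aldoc rose by 5.59 ± 0.50 on the log2 scale (SE, adjusted p = 2.08e-08 by limma), Aldoa by 3.24 ± 0.22, Tpi1 by 3.00 ± 0.30, Gpi1 by 2.32 ± 0.20 and Ldhb by 2.03 ± 0.15. Ldha (0.92 ± 0.23), Pkm (0.86 ± 0.15), Gapdh (0.70 ± 0.10) and Pgk1 (0.58 ± 0.19, adjusted p = 0.0115) rose less. The median was 2.03, against 0.01 over all genes. Aldoc in Day2 library 2 (2.00 transcripts) and Tpi1 in Day2 library 4 (5.01) were below the filter, so both genes passed it only with Day60 libraries. Without Day2 library 2 the log2 fold of Aldoc was 4.58 and without library 3 it was 6.37. The call of Pgk1 was lost without Day2 library 3 or 4 (adjusted p = 0.0636 and 0.0697) and when libraries were scaled by their totals (0.0555). All 11 tested stem cell markers rose, summing to 44359 to 48873 CPM in Day60 libraries, against 828.3 to 3876 CPM in Day2 libraries, and all 14 neuroblast markers and 11 of 13 progenitor markers fell, with 1 higher. All 4 tested endothelial markers rose too, with sums of 228.2 to 921.0 CPM in Day60 libraries, against 0 to 8.52 CPM in Day2 libraries; the part of these cells was not tested.

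Among 33 other tested genes of the pathway, 22 rose and 3 fell in Day60. The 6 tested glycogen genes all rose, led by Pygm (5.29 ± 0.46) and Pgm2, a phosphoglucomutase (4.37 ± 0.44), and so did the 3 transport genes, with Slc2a1 at 4.68 ± 0.51. Of 6 other glycolytic enzymes, 5 rose. Pdp1 (-2.20 ± 0.36), Got1, the cytosolic aspartate aminotransferase of the malate-aspartate shuttle (-0.71 ± 0.28), and Pdhb, a subunit of pyruvate dehydrogenase (-0.61 ± 0.17), fell. The Day2 values rest on 1.00 transcript of Pygm and 10.0 of Slc2a1 in 4 libraries. Genes near 0 in Day2 passed the filter through Day60 alone, so the shared direction of such genes was set by the filter.

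Day2 against Ki67RFP sets cells labelled at division and taken 2 days later beside cells that hold the Ki67 reporter at sorting. Of 9 members, 3 fell and none rose, where 14.2% of 6952 genes fell and 14.3% rose. Tpi1 fell by 1.74 ± 0.30 on the log2 scale (SE, adjusted p = 9.60e-05 by limma), Pkm by 0.72 ± 0.11 and Gapdh by 0.58 ± 0.07. Both aldolases and both lactate dehydrogenase genes did not pass the test, with Aldoc at 1.81 ± 0.74 (adjusted p = 0.0704). Without Day2 library 2, the library with no stem-like cell, Aldoc passed it (2.74, adjusted p = 6.43e-05), and without Day2 library 3 the log2 fold was 0.99. Of 22 other pathway genes, 6 rose and 2 fell: Pfkp, the platelet-type phosphofructokinase, rose by 1.56 ± 0.28, Got1 by 0.64 ± 0.22 and Mpc1, a mitochondrial pyruvate carrier subunit, by 0.62 ± 0.17. Gpd2, the mitochondrial glycerol-3-phosphate dehydrogenase (-1.06 ± 0.39), and Pgam1, phosphoglycerate mutase (-0.44 ± 0.13), fell. Of the neuroblast markers, 10 of 14 rose and 1 fell; of 13 tested progenitor markers, 7 fell and 2 rose; of 10 stem cell markers, 1 rose and 1 fell; and 3 of 7 microglia markers fell. The Rn45s and Lars2 values given above also moved with this comparison, and their part was not tested.

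**Figure D2:**
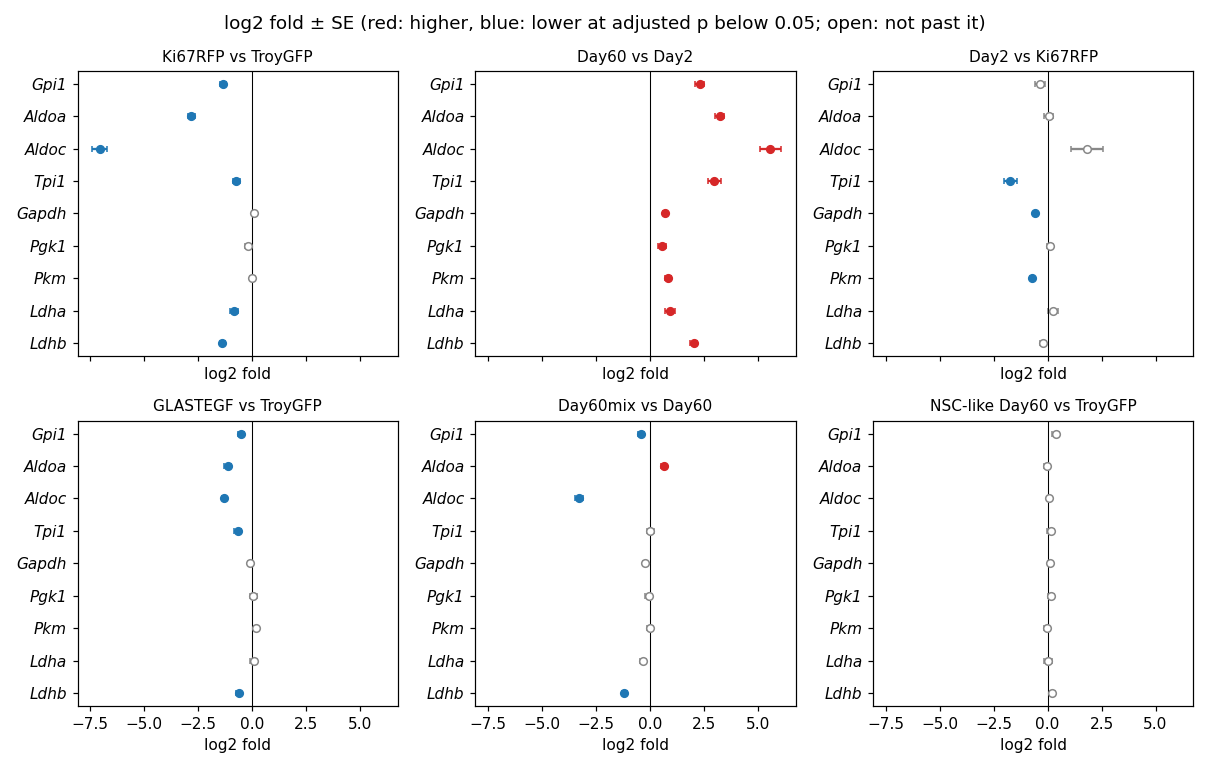
Log2 fold with its SE (x axis) for 9 members (y axis) in 6 comparisons, filled in red or blue where adjusted p was below 0.05 and open where it was not. All 9 were higher in Day60 than in Day2, and none passed the test between the stem-like cells of Day60 and TroyGFP.

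GLASTEGF cells were compared with TroyGFP cells, both sorts being aimed at the stem cell lineage. Of 9 members, 5 fell and none rose, where 15.5% of 7818 genes fell and 14.9% rose. Aldoc fell by 1.29 ± 0.10 on the log2 scale (SE, adjusted p = 1.94e-08 by limma), and Aldoa had a log2 fold of -1.11 ± 0.16, Tpi1 of -0.66 ± 0.17, Ldhb of -0.62 ± 0.12 and Gpi1 of -0.52 ± 0.14, all called lower. Ldha (0.07 ± 0.16), Gapdh (-0.10 ± 0.10), Pgk1 (0.07 ± 0.14) and Pkm (0.18 ± 0.12) did not pass the test. With every cell thinned to 1000 transcripts, which gives cells equal weight, 2 members were called, Aldoc (-0.62) and Aldoa; Ldhb (-0.29), Tpi1 (-0.12) and Gpi1 (-0.10) were not. The libraries of these 2 sorts were split over flow cells. Within 1 flow cell, with TroyGFP libraries 3 and 4 and GLASTEGF libraries 1 and 2, 3 were called, without Gpi1 (-0.42, adjusted p = 0.186) and Tpi1 (-0.61, adjusted p = 0.129). Without the 3 libraries with gut transcripts, 4 were called, Gpi1 being lost (adjusted p = 0.0885). Those 3 libraries were also left out of the flow cell run, so the 2 runs are not separate checks. All 12 stem cell markers fell, and all 13 tested progenitor markers and 10 of 13 neuroblast markers rose in GLASTEGF; their part was not tested.

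In the same comparison, 13 of 34 other pathway genes fell and 1 rose. Slc2a1 (-1.99 ± 0.30), Pygl (-1.45 ± 0.35) and Bsg, the chaperone of lactate transporters (-1.42 ± 0.20), fell most. Gpd1, the cytosolic glycerol-3-phosphate dehydrogenase, rose (1.44 ± 0.35). Endothelial cells, which are known for Slc2a1 and Bsg, had 7 of 7 tested markers lower, summing to 2.66 to 847.2 CPM in GLASTEGF libraries, against 636.4 to 1190 CPM in TroyGFP libraries, and their part was not tested.

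Adding olfactory bulb and O4 cells was assessed as Day60mix against Day60. Of 9 members, 1 rose and 3 fell, where 22.2% of 8152 genes rose and 21.1% fell. The isoform genes moved apart: Aldoa rose by 0.64 ± 0.13 (SE, adjusted p = 0.000936 by limma), while Aldoc fell by 3.28 ± 0.18 (adjusted p = 8.37e-10). Ldhb fell by 1.18 ± 0.12, and Ldha was at -0.32 ± 0.15 (adjusted p = 0.105). Gpi1 fell by 0.40 ± 0.15 (adjusted p = 0.0350), a call that was lost without Day60mix library 2 or 4 or Day60 library 2 or 4 (adjusted p = 0.0727 to 0.134) and with scaling by totals (0.149). Gapdh (-0.22 ± 0.11) passed the test without Day60 library 4 (-0.29, adjusted p = 0.0456) and with cells thinned to 1000 transcripts (-0.44, adjusted p = 0.0145). Of 37 other pathway genes, 8 rose, led by Slc2a3, the neuronal glucose transporter (3.35 ± 0.66), Eno2, neuron-specific enolase (2.65 ± 0.31), and Got1 (2.47 ± 0.24). Another 15 fell, led by Pygb, the brain-type glycogen phosphorylase (-2.87 ± 0.19), Pdk4, an inhibitory kinase of pyruvate dehydrogenase (-2.62 ± 0.53), and Gys1, glycogen synthase (-2.18 ± 0.43), and 6 of 7 glycogen genes were among them. All 10 markers of mature neurons, all 9 of oligodendrocytes, all 8 of their precursors and 8 of 11 tested neuroblast markers rose, and all 11 tested stem cell markers fell; their part was not tested.

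**Figure D3:**
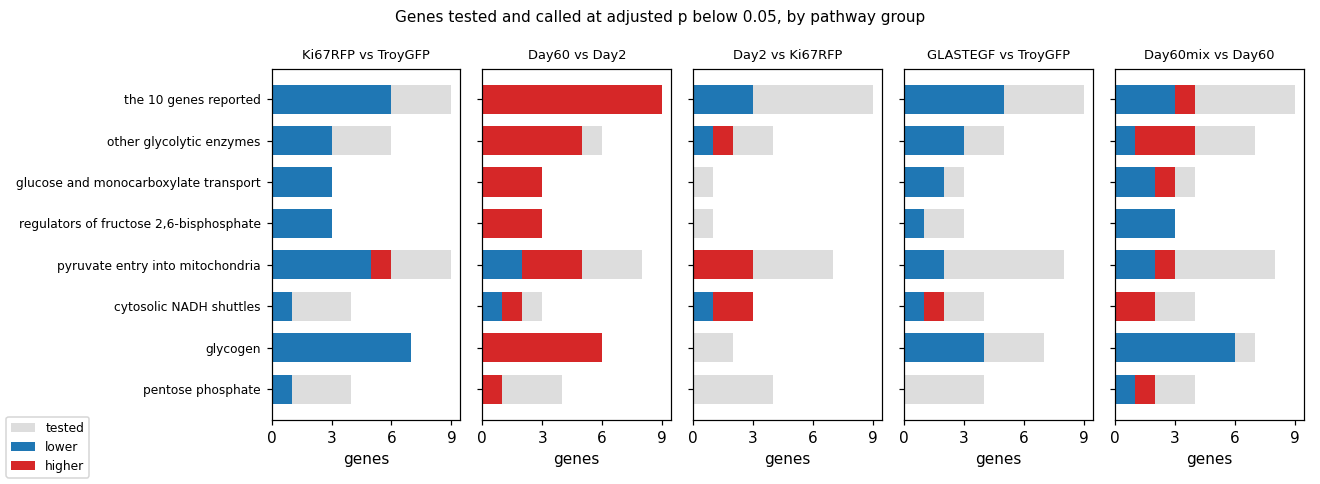
Number of genes tested (grey), lower (blue) and higher (red) in the 10 genes reported and 7 groups of other pathway genes (y axis), in 5 comparisons. All 7 tested glycogen genes were lower in Ki67RFP than in TroyGFP, where 31.2% of 8396 genes were lower. All 6 tested were higher in Day60 than in Day2, where 34.8% of 7648 genes were higher. Genes near 0 in the low sort passed the filter through the high sort alone, so their direction was set by the filter.

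To describe levels by cell state, cells were clustered without any of the pathway genes and the clusters named from markers. The markers of the NSC-like class, called stem cell markers above, are shared by quiescent neural stem cells and astrocytes. NSC-like cells made up 82.8 ± 1.6% of Day60 cells, 40.1 ± 9.0% of GLASTEGF cells and 65.8 ± 15.1% of TroyGFP cells (SD, n = 4 libraries). TroyGFP library 2 had the lowest share, 43.4%, and 24 of its cells lay in a cluster led by gut genes. In Ki67RFP, 54.6 ± 5.2% of cells were progenitor-like and 41.3 ± 4.7% neuroblast-like; in Day2, 20.6 ± 2.2% and 73.5 ± 2.8% were. Day60mix held 39.7 ± 3.4% oligodendrocyte-like, 23.6 ± 1.6% mature neuron-like and 8.4 ± 3.3% NSC-like cells. Levels by class are means over libraries with at least 5 such cells, in transcripts per 1000000 (CPM) without TMM scaling; they are a description, since classes were rebuilt here and differ in depth.

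Between NSC-like cells of Day60 and of TroyGFP no member passed the test, where 1.47% of 6392 genes rose and 1.27% fell. At an unadjusted p below 0.05 there were 2, Gpi1 (0.37 ± 0.14, adjusted p = 0.189 by limma) and Ldhb (0.22 ± 0.10, adjusted p = 0.246). Aldoc differed by 0.08 ± 0.07 and Aldoa by -0.03 ± 0.12 on the log2 scale. None of the 31 other pathway genes tested passed either, and 7 had an unadjusted p below 0.05. Cluster 0 held 222 of 289 NSC-like cells of Day60 and 135 of 205 of TroyGFP. A p that misses the threshold does not show that the levels are equal.

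NSC-like cells carried Aldoc at 2702 ± 413 CPM in Day60mix (SD, n = 3 libraries), 3961 ± 350 in Day60, 4180 ± 527 in GLASTEGF and 3784 ± 145 in TroyGFP (n = 4 each). The Day60mix value comes from 26 cells, 20 of them in cluster 1, which held 36 of 289 in Day60. Aldoa was at 512.9 ± 84.3, 506.6 ± 26.5, 436.3 ± 141.1 and 528.6 ± 53.7 in the same order. After thinning to 1000 transcripts per cell, Aldoc was found in 98.6% of NSC-like cells of Day60 (100% before thinning, median depth 4987 transcripts) and in 1.54% of neuroblast-like cells of Ki67RFP (8.46% before thinning, median depth 4457).

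The NSC-like class joined 4 clusters. Over all sorts, cluster 0 (423 cells), cluster 1 (83 cells, led by Agt and Islr), cluster 2 (110 cells, led by Thbs4 and Gfap) and cluster 5 (13 cells) held pooled Aldoc of 4076, 3154, 3586 and 3978 CPM. Pkm was at 534.6, 593.1, 788.9 and 667.2 in the same order. In TroyGFP, Pkm averaged 827.7 ± 131.3 in cluster 2 and 530.0 ± 102.6 in cluster 0 (SD, n = 4 libraries each), and in Day60 821.3 ± 200.8 (n = 3) and 552.4 ± 58.1 (n = 4). In GLASTEGF it was 558.9 ± 29.1 in cluster 2 (n = 2) and 539.4 ± 75.0 in cluster 0 (n = 4), and the pooled values mix sorts in different shares. These are values of clusters of the same cells and were not tested.

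Progenitor-like cells of GLASTEGF and TroyGFP had less Aldoc than NSC-like cells of the same sorts. The progenitor-like level was 2.48 ± 4.96 in Day2, 35.7 ± 32.01 in Ki67RFP, 180.2 ± 33.4 in GLASTEGF and 305.4 ± 190.9 CPM in TroyGFP (SD, n = 4 each). Their Aldoa was at 48.5 ± 14.9, 62.6 ± 6.3, 103.2 ± 17.2 and 124.4 ± 35.6 in that order. Ldhb (286.7 to 447.8) and Gpi1 (94.3 to 142.8) ranked the sorts alike, with Day2 lowest and TroyGFP highest, whereas Gapdh was highest in Ki67RFP, at 2175 ± 87. Median depth was 9831, 8150, 11578 and 9763 transcripts per progenitor-like cell in the same order, above that of NSC-like cells (4170 to 5316).

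Neuroblast-like cells were compared between Day2 and Ki67RFP by their levels. Aldoa had 38.8 ± 21.5 in Day2 and 47.02 ± 18.4 CPM in Ki67RFP, and Ldha 51.99 ± 14.1 and 41.1 ± 18.9 (SD, n = 4 each). Gapdh was at 870.1 ± 150.9 in Day2 and 1522 ± 246 in Ki67RFP, Pkm at 305.2 ± 79.97 and 545.9 ± 66.3, and Tpi1 at 19.8 ± 5.4 and 71.4 ± 15.5. The library ranges of these 3 genes did not overlap, but the class is made of different clusters in the 2 sorts. Cluster 15, led by Prokr2 and Nrep, held 112 of 162 Day2 cells and 24 of 130 Ki67RFP cells, cluster 17, led by the mitotic genes Ube2c and Psrc1, held 31 and 55, and cluster 4, led by Dlx1as and Islr2, held 19 and 51. In cluster 15, Gapdh averaged 635.2 ± 139.7 in Day2 (SD, n = 4 libraries) and 1156 ± 434 in Ki67RFP (n = 3), with overlap, while Tpi1 was at 14.3 ± 5.7 and 12.04 ± 20.9. In cluster 17, Gapdh was at 1143 ± 355 in Day2 and 1553 ± 311 in Ki67RFP, Pkm at 376.3 ± 104.8 and 425.0 ± 62.7, and Tpi1 at 30.2 ± 10.3 and 74.5 ± 35.6 (n = 4 each), and the ranges of all 3 overlapped. In cluster 4, Gapdh was at 1148 ± 137 in Day2 (n = 2) and 1661 ± 291 in Ki67RFP (n = 4). Pkm was there at 454.4 ± 62.6 and 786.5 ± 139.0, and Tpi1 at 16.5 ± 23.3 and 99.1 ± 60.8. The ranges of all 3 were apart in cluster 4, where Day2 held 2.00 transcripts of Tpi1. The part of cluster makeup in the class values was not tested. With fewer clusters (resolution 0.5), neuroblast-like Gapdh was at 686.8 in Day2 and 1208 in Ki67RFP.

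Mature neuron-like cells of Day60mix had the highest levels of 7 members among the named classes with at least 2 libraries. Aldoa stood at 1791 ± 320.5, Gapdh at 3200 ± 391, Pkm at 1279 ± 202, Tpi1 at 615.9 ± 138.1, Pgk1 at 490.3 ± 98.4 and Gpi1 at 464.8 ± 166.8 CPM (SD, n = 4). Their Aldoc was 56.55 ± 44, and Ldhb was 1150 ± 221, close to the NSC-like level in Day60 (1122 ± 72). Oligodendrocyte-like cells had Aldoa at 649.4 ± 98.2 but Ldhb at 89.4 ± 17.96, Ldha at 52.7 ± 33.9 and Tpi1 at 60.05 ± 10.55. In 18 microglia-like cells of Day60mix, Ldha was at 412.6 and 739.2 in the 2 libraries with enough of them. With finer clusters (resolution 2.0), 13 Day60mix cells fell into an unnamed cluster led by Cybb and Lyz1 and 5 into the microglia-like one, so the class value rests on cells that were not named microglia-like under both settings.

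**Figure D4:**
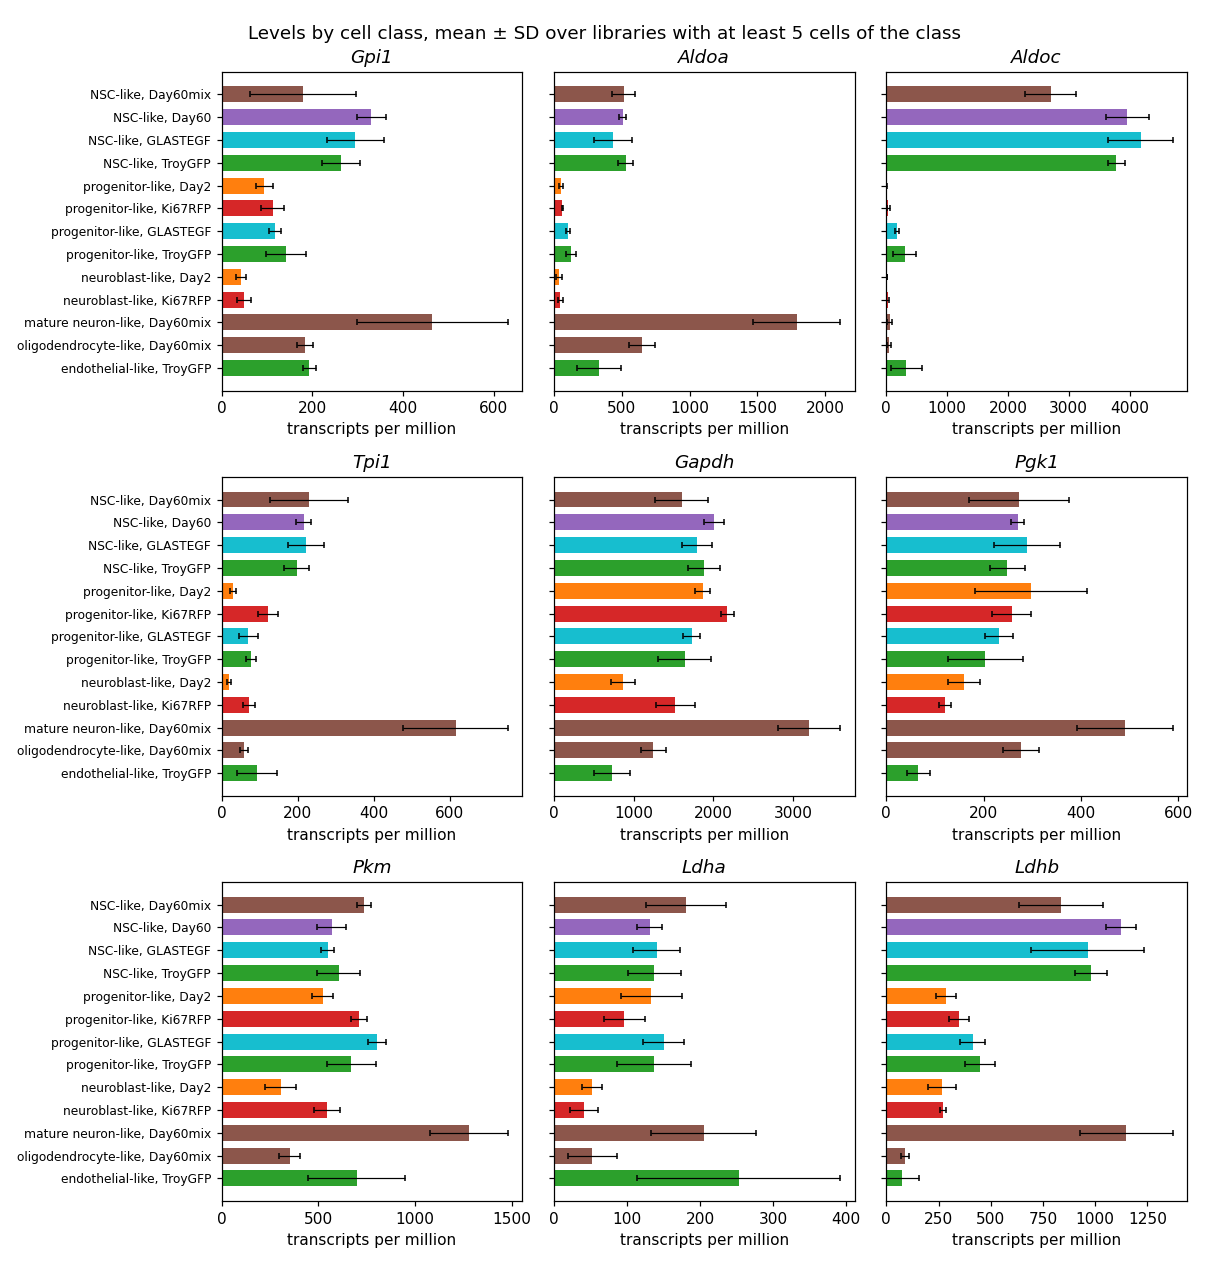
Levels of 9 members by cell class and sort (y axis) in CPM (x axis), as means with SD over libraries that had at least 5 cells of the class. Aldoc was at 2702 to 4180 in NSC-like cells, and Aldoa was highest in mature neuron-like cells (1791 ± 320.5).

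Isoform use was read as the share of Aldoc in the transcripts of both aldolase genes, which does not depend on scaling. It was 62.01 ± 10.1% in Prom1CD24, 28.9 ± 8.4% in Day60mix, 85.5 ± 2.6% in Day60, 53.3 ± 29.7% in Day2, 28.9 ± 21.05% in Ki67RFP, 85.1 ± 3.8% in GLASTEGF and 86.8 ± 1.0% in TroyGFP (SD, n = 4 libraries). The Day2 libraries spread from 11.001 to 79.8% and the Ki67RFP libraries from 9.36 to 51.01%, so their means describe few transcripts. Between Ki67RFP and TroyGFP the log2 ratio of Aldoc to Aldoa differed by -4.25, with no overlap (exact 2-sided permutation p = 0.0286, adjusted p = 0.0571 over 12 ratio tests). Day60 minus Day2 gave 2.44 and Day60mix minus Day60 gave -3.91, both without overlap and with the same p values by the exact test. With 4 libraries against 4, 0.0286 is the smallest p possible, and no ratio test passed the adjusted threshold. In Day60 against Day2 the difference was 1.49 without Day2 library 2 and 3.05 without library 3, and in Ki67RFP against TroyGFP it ran from -4.78 to -3.74 as single libraries were left out. GLASTEGF minus TroyGFP was -0.18 (exact permutation p = 0.514), although both genes fell there.

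By class, the Aldoc share was 84.1 ± 0.2% in NSC-like cells of Day60mix (SD, n = 3), 88.6 ± 0.8% in Day60, 90.6 ± 2.4% in GLASTEGF and 87.8 ± 0.9% in TroyGFP (n = 4 each). Progenitor-like cells had 3.12 ± 6.24% in Day2, 30.96 ± 21.8% in Ki67RFP, 63.4 ± 4.8% in GLASTEGF and 66.4 ± 14.8% in TroyGFP. The Day2 value came from library 4 alone (12.5%), where 25.9 of 27.95 Aldoc transcripts lay in NSC-like cells, and the other libraries had 0%. Neuroblast-like cells, the largest class of Day2, had 19.98 ± 9.82% in Day2 and 24.8 ± 21.4% in Ki67RFP. The 6 NSC-like cells of Day2, pooled, had 91.4%. The Day2 sort mean of 53.3% was thus the share of none of these classes. Mature neuron-like and oligodendrocyte-like cells of Day60mix had 3.24 ± 2.53% and 6.74 ± 3.49%. These shares are described and were not tested.

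The share of Ldhb in both lactate dehydrogenase genes varied less. It was 76.99 ± 2.1% in Prom1CD24, 77.3 ± 2.0% in Day60mix, 86.1 ± 1.5% in Day60, 73.6 ± 10.6% in Day2, 80.1 ± 1.8% in Ki67RFP, 78.1 ± 2.0% in GLASTEGF and 85.3 ± 1.9% in TroyGFP (SD, n = 4). The log2 ratio of Ldhb to Ldha was lower by 0.53 in Ki67RFP and by 0.70 in GLASTEGF than in TroyGFP, and by 0.87 in Day60mix than in Day60. Each of these 3 differences was without overlap (exact permutation p = 0.0286, adjusted p = 0.0571). Day60 minus Day2 was 1.09, with overlap (exact permutation p = 0.0571, adjusted p = 0.0980). In 27 endothelial-like cells of TroyGFP the Ldhb share was 24.9 ± 22.1% (n = 4). Microglia-like cells differed by sort: the share was 15.4 and 38.6% in 2 Day60mix libraries, but the few such cells of other sorts held 13.3 transcripts of Ldha and 2.01 of Ldhb in Day2 (5 cells), 6.02 and 25.5 in Day60 (6 cells) and 2.00 and 18.2 in Ki67RFP (10 cells). Oligodendrocyte precursor-like cells were at 49.9 and 53.8% in 2 libraries, and oligodendrocyte-like cells at 47.4 to 83.4% in 4.

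**Figure D5:**
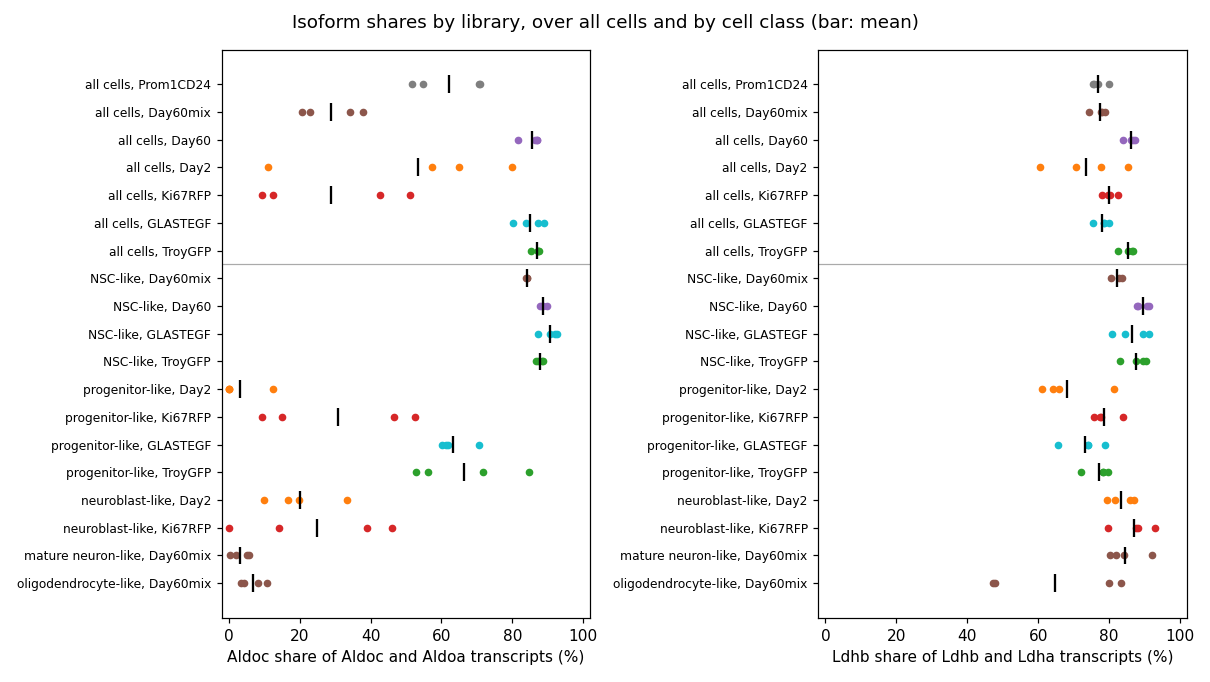
Share of Aldoc in Aldoc and Aldoa transcripts (left) and of Ldhb in Ldhb and Ldha transcripts (right), in percent, with a point for each library and a bar at the mean, for all cells of each sort above the grey line and for cell classes below it. NSC-like cells lie at 83.9 to 92.6% for Aldoc, and mature neuron-like cells at 0.34 to 5.64%.

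The summed level of the 10 genes was 5586 ± 436 CPM in Day60mix, 9040 ± 722 in Day60, 2747 ± 173 in Day2, 3647 ± 186 in Ki67RFP, 4884 ± 278 in GLASTEGF and 7264 ± 320 in TroyGFP (SD, n = 4 each). Without Aldoc the sums were 5191 ± 372, 5609 ± 670, 2623 ± 71, 3616 ± 167, 3758 ± 178 and 4486 ± 338 CPM in the same order. Across the 28 libraries, the log2 levels of Gpi1 and Tpi1 (Pearson r = 0.861) and of Aldoa and Gpi1 (0.854) went together most among the members, while Aldoc and Ldhb reached 0.758 and Aldoc and Pgk1 0.198. The genes whose pattern over the 28 libraries was most like that of Aldoc, among 8488 compared, were Clu (r = 0.971), Htra1 (0.966) and Cxcl14 (0.965). Those for Aldoa were Osbpl1a (0.967), Lamp1 (0.954) and Olfml1 (0.944), for Ldhb Soat1 (0.935), Dnah7b (0.933) and Ednrb (0.933), and for Ldha Porcn (0.893), Cgrrf1 (0.881) and Tuba4a (0.853). Libraries of 1 sort share their cells' makeup and depth, so these values describe the sorts and carry no p.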

How the data were processed

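Cells were sorted into plates and profiled by SORT-seq on a NextSeq500, per the labels' protocols; BWA 0.6.2-r126 and mm10 are named in the submitters' processing notes. The deposited values are transcript counts per gene and well that the authors corrected for collisions of 256 random barcodes (unit: other, not whole counts). Wells with at least 1000 transcripts were kept and summed per library. Libraries had 77795 to 575257 transcripts over all wells and 43149 to 572793 in the kept wells. Sums were tested with limma 3.58.1 (voom, TMM scaling, Benjamini-Hochberg) in R 4.3.3, after a filter of 10 transcripts in a median-sized library in as many libraries as the smaller group and 15 in all. The fit was also run on simulated data with few changed genes and equal spread in both sorts. Most real comparisons had far more calls and unequal spread, so that run does not vouch for them. Isoform ratios (offset 0.5) were compared by exact permutation. Cells were clustered with scanpy 1.11.5 (2000 variable genes, 30 components, 15 neighbours, Leiden resolution 1), leaving out pathway, cell cycle and ribosomal genes. A cluster was named where at least 3 markers led it. No doublet caller was run. Thinning to 1000 transcripts left out no cell. Other pathway genes (49 of 53 found) were named for the 3 largest called changes in each direction. Members, lists and tests were chosen with earlier results of these data known. The planned count tests were not run on these corrected values. A flagged result on a gene outside the 10 is not reported here.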

Additional observations from a re-analysis of the deposited data

Results flagged for a closer look

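Of 77 sets of 4 libraries examined, 4 had a library far from the other 3, where chance flags about 1 in 20 sets. Aldoa was highest in TroyGFP library 4, at 473.3 CPM. Pgk1 was highest in Day60 library 1, at 488.6 CPM. The share of Aldoc in both aldolase genes was lowest in TroyGFP library 4, at 85.3%, and in Day60 library 1, at 81.6%.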

How the results depend on the processing

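No value of a called member or ratio changed sign under any alternative run; 36 of 953 member folds and 2 of 168 ratio values did so, all among results that had not passed the threshold, such as Aldoc over Aldoa in GLASTEGF minus TroyGFP (0.28 with thinned cells). Thinning cells to 1000 transcripts, which lowers depth, left 1116 genes called in Ki67RFP against TroyGFP (5005 otherwise), 1242 in Day60 against Day2 (5168), 446 in Day2 against Ki67RFP (1982), 247 in GLASTEGF against TroyGFP (2379), 1015 in Day60mix against Day60 (3528) and 29 between NSC-like cells (175); in GLASTEGF against TroyGFP it left 2 members (5 otherwise). Within 1 flow cell, with fewer libraries, GLASTEGF against TroyGFP gave 3 members and 1024 genes, and the NSC-like cells 111 genes. Without the 3 libraries with gut transcripts, an alternative chosen after seeing the data, these gave 1288 and 116 genes. Leaving out 1 library at a time gave 4745 to 5056, 4988 to 5510, 1644 to 1873, 1886 to 2294, 3122 to 3534 and 116 to 157 genes in the order above, the lowest of the NSC-like counts without TroyGFP library 2, and 6, 8 to 9, 3 to 4, 5, 3 to 4 and 0 members. The replicate numbers did not pair the libraries (correlations of -0.08 to 0.06); with the number as a replicate block, NSC-like cells gave 273 genes, and Aldoc passed the test in Day2 against Ki67RFP (2.19, adjusted p = 0.0231 by limma). Scaling by library totals moved the median of all genes by -0.16 in Day60 against Day2 and by 0.13 in Day60mix against Day60. Of 450 class levels recomputed under other clusterings, 24 moved by more than the spread between libraries. The edgeR and DESeq2 tests planned as alternatives were not run, as the values are not counts. Eno1 and the Aldoc values of Day2 and Ki67RFP rest on few transcripts, which limits their precision. The causes of these changes were not tested.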
